A study of Mus musculus with 8 samples.

Results

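The genes of the proteasome and *Nfe2l1*, the transcription factor that drives them in brown fat, were examined in brown adipose tissue (BAT) of *Adipo-HuR-/-* and control mice. Members were chosen by name: every gene symbol that opened with Psma to Psmg and a digit, pseudogene names with -ps left out, together with *Nfe2l1*. The rule left out 4 pseudogenes, of which *Psmb7-ps2* had 2 to 35 counts a library and the others at most 1. This gave 51 of 33641 genes, 50 with a Psm symbol and *Nfe2l1* itself. Of these, 50 passed the filter on low counts and were tested. *Psma8*, the alpha subunit of testis, did not pass, with 3, 0 and 0 counts in the control libraries and 2, 1, 0, 6 and 2 in the others. *Psmc3ip* matched by its name only and encodes a meiotic recombination protein, not a subunit; it was at 0.81 to 2.66 CPM (counts per 1e6 counts, scaled by edgeR's TMM factors), with a log2 fold change of 0.08 and an adjusted p of 0.934 (edgeR).

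The proteasome degrades ubiquitin-tagged proteins. Its 20S core is a stack of alpha and beta rings with the proteolytic sites inside the beta rings, and 19S caps of ATPases and non-ATPase subunits recognise, unfold and feed in the substrate. *Nfe2l1* is made as a protein of the endoplasmic reticulum membrane that is itself degraded, and when proteasome activity is short it is deglycosylated, cleaved and sent to the nucleus to switch on proteasome genes, an adaptation known from cold-exposed brown fat. It was once named Nrf1 but is not nuclear respiratory factor 1, the product of the gene *Nrf1*.

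Poly(A) RNA-seq was done on interscapular BAT of C57BL/6 mice aged 28 weeks, to find genes that depend on the RNA binding protein HuR in this tissue. By their labels, libraries A7, A8 and A12 came from 3 wild-type animals (control), while A24, A25, A26, A29 and A31 came from 5 animals of genotype adipo-HuR-/- (*Adipo-HuR-/-*), and the study's legend gives the group sizes the other way round. *Adipo-HuR-/-* mice carried floxed *Elavl1*, the HuR gene, and a Cre driven by adiponectin, which acts in adipocytes and leaves HuR in the other cells of BAT; controls were littermates without a complete floxed and Cre genotype, of 3 genotypes pooled (wt/wt-cre+, flox/flox-cre− and wt/flox-cre−), and the labels give no diet. Estimated counts per library summed to between 17558090 (A25) and 67498055 (A26), so that 3 counts in A25 were worth 0.171 CPM before TMM scaling. P-values below measure the spread between these individual mice.

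*Elavl1* was at 50.6, 48.0 and 49.2 CPM in A7, A8 and A12 and at 61.9, 47.3, 43.4, 61.3 and 61.2 CPM in A24, A25, A26, A29 and A31. Labelled *Adipo-HuR-/-* libraries thus had no lower total of this gene (log2 fold change 0.16, SE 0.162, adjusted p = 0.667, edgeR), and every direction below is between libraries as labelled. A gene total also counts reads outside a deleted part, and exons were not analysed here. The tissue label held in each library: *Ucp1*, the uncoupling protein of brown adipocytes, lay between 4251 and 11438 CPM, and all 8 brown adipocyte markers were detected.

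No proteasome gene passed the test between groups. With edgeR's quasi-likelihood test, an adjusted p of at most 0.05 and a fold change of at least 1.5, 0 of the 50 members tested were called, beside 105 of 14851 genes (0.707%). At an unadjusted p under 0.05 there were 5 members (*Psmc1*, *Psmd1*, *Psmd2*, *Psmd14* and *Psme4*), or 10%, all lower in *Adipo-HuR-/-*, beside 17.0% of all genes. The likelihood ratio test and limma voom called 0 members as well, beside 4.41% and 1.06% of all genes, and DESeq2's Wald test called 1, *Psme4*, beside 5.51%. Without the fold threshold the Wald test held 3 members (*Psmd1*, *Psmd14* and *Psme4*), or 6.0%, beside 6.55% of all genes. All these shares were at or below those of the whole table, apart from the 4 members (8.0%) whose groups did not overlap with *Adipo-HuR-/-* lower, beside 6.09% of all genes. No member had non-overlapping groups in the other direction, where the share of all genes was 5.37%.

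The median log2 fold change of the members was −0.14, with 34 estimates below 0 and 16 above, and that of all genes tested was 0.00. The sign of the members' median changed with the scaling, which moved all genes, and without 1 control library. The members' median minus that of all genes was −0.15 with TMM scaling. With libraries scaled by total counts alone, which moved the median of all genes to 0.23, the members' median was 0.11, or 0.12 below that of all genes, and 36 estimates were above 0. On that scale 1 member had non-overlapping groups with *Adipo-HuR-/-* lower (*Psmd14*) and 4 with it higher (*Psmd5*, *Psmf1*, *Psmg1* and *Psmg3*), beside 1.45% and 11.9% of all genes. Without A8 the members' median was 0.06, beside 0.01 for all genes. The 95% interval lay within 1.5-fold of no change for 18 of the 50 members (36.0%; 21.5% of all genes), and for the rest a difference of 1.5-fold in at least 1 direction lay inside the interval.

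**Figure D1:**
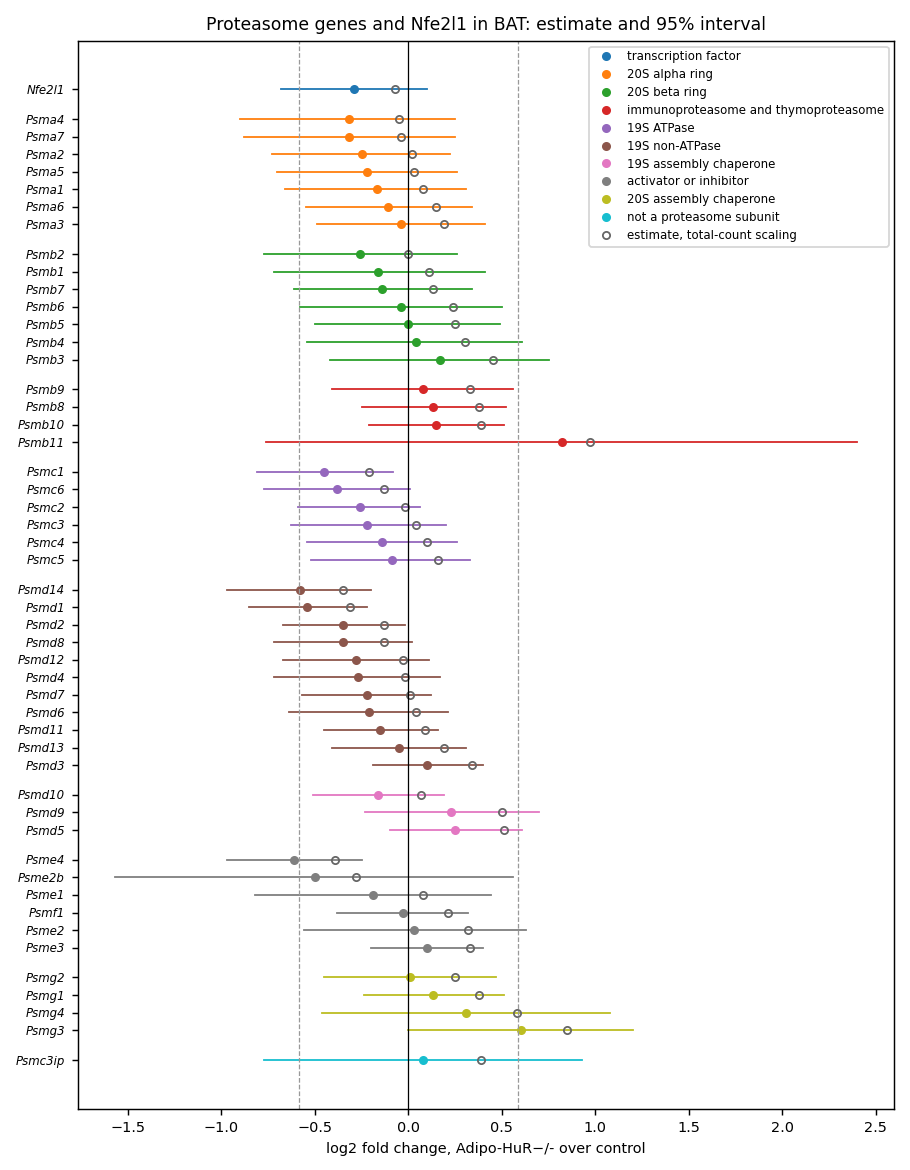
Log2 fold change (*Adipo-HuR-/-* over control, x axis) of the 50 members tested, in rows by class; filled points and lines are the edgeR estimate and its 95% interval with TMM scaling, open points the estimate with total-count scaling, and dashed lines mark 1.5-fold. With TMM scaling 34 estimates lay below 0, and with total counts 14 did, beside 7413 and 4132 of all 14851 genes.

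*Nfe2l1* (chr11:96817414-96829968, minus strand, GRCm38) was at 601, 467 and 501 CPM in A7, A8 and A12, and at 326, 450, 483, 424 and 452 CPM in A24, A25, A26, A29 and A31. A7 was the highest library and A24 the lowest, and the groups overlapped, since A26 lay above A8. The mean was 523 ± 69.4 CPM in control (SD, n = 3) and 427 ± 60.3 CPM in *Adipo-HuR-/-* (SD, n = 5). The log2 fold change was −0.29 (95% interval −0.68 to 0.10, SE 0.177), with an adjusted p of 0.438 in edgeR's quasi-likelihood test. The two-sided exact permutation p was 0.0714, where 3 against 5 libraries cannot give less than 0.0357. The estimate lay below 0 in all 22 fits run, between −0.50 (highest transcript alone) and −0.07 (total counts), and was called in 0 of them.

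The files list 12 transcripts of *Nfe2l1*, and the estimates divided the gene differently from library to library. The transcript with the highest total (4596 bases) took 60.2%, 51.4% and 52.3% of the gene's counts in the control libraries and 26.5%, 37.1%, 70.5%, 37.6% and 58.7% in A24, A25, A26, A29 and A31. A shorter protein-coding transcript of 3530 bases took 0.0% in A7 and in A25 but 30.6% in A8 and 59.7% in A24. These shares differed between animals of the same group by more than the groups did, and since the transcripts overlap in sequence, how reads were divided between them is uncertain. The gene sum was therefore used in the main test, and the estimate from the highest transcript alone is as uncertain as these shares.

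Among the 14 subunits of the 20S core that were tested, levels per transcript length (TPM, mean ± SD over 8 libraries) went from 55.4 ± 5.41 TPM for *Psma2* to 204 ± 43.8 TPM for *Psmb3*. Next below *Psmb3* came *Psma6* at 190 ± 16.0 TPM and *Psmb6* at 184 ± 30.8 TPM. *Psmb7* stood at 183 ± 16.9 TPM and *Psmb5* at 178 ± 32.7 TPM. This order pools both groups and did not hold within each. In control *Psma6* (mean 181 TPM) and *Psmb7* (176 TPM) stood above *Psmb3* (168 TPM). In *Adipo-HuR-/-* *Psmb3* was at a mean of 226 TPM and *Psma6* at 195 TPM.

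Among the 7 alpha subunits tested, which form the outer rings and the gate, all estimates lay below 0 with TMM scaling, from −0.32 to −0.04, and 5 of the 7 above 0 with total counts. Their median was −0.22 with TMM scaling and 0.03 with total counts, beside 0.00 and 0.23 for all genes. The lowest estimate was that of *Psma4*, at 90.9, 206 and 137 CPM in A7, A8 and A12 and at 141, 88.7, 94.3, 123 and 131 CPM in A24, A25, A26, A29 and A31. The highest was *Psma3*, at 58.9, 83.2 and 79.4 CPM in the control libraries and at 99.2, 57.9, 70.6, 69.2 and 62.1 CPM in the *Adipo-HuR-/-* libraries, in the same order. In both genes A7 and A25 were the lowest libraries, A8 and A24 the highest, and the groups overlapped. Log2 fold changes were −0.32 (SE 0.259) and −0.04 (SE 0.201), with adjusted p of 0.573 and 0.940 (edgeR).

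The 7 beta subunits of the standard core gave estimates from −0.26 to 0.17. *Psmb2*, the lowest, was at 71.8, 125 and 96.2 CPM in the control libraries and at 110, 65.4, 61.2, 81.5 and 90.8 CPM in A24, A25, A26, A29 and A31. *Psmb3*, the highest, was at 72.4, 156 and 93.6 CPM and at 169, 118, 98.3, 106 and 112 CPM. A8 and A24 led in both genes. Neither estimate exceeded the spread between libraries (*Psmb2* −0.26, SE 0.234, adjusted p 0.629; *Psmb3* 0.17, SE 0.264, adjusted p 0.795; edgeR). A8 was the highest library for 9 of the 14 core subunits and A24 for the other 5, while A8 was the highest for 14.5% of all genes tested and A24 for 15.9%. With total counts A24 led in 11 and A8 in 3, beside 12% and 2.4% of all genes.

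The proteolytic sites of the standard core are in *Psmb5* (chymotrypsin-like), *Psmb6* (caspase-like) and *Psmb7* (trypsin-like). *Psmb5* was at 104, 147 and 98.3 CPM in A7, A8 and A12 and at 164, 110, 85.0, 109 and 116 CPM in A24, A25, A26, A29 and A31. *Psmb6* was at 82.5, 154 and 89.1 CPM and at 136, 99.0, 75.7, 106 and 112 CPM. *Psmb7* was at 132, 221 and 144 CPM and at 199, 128, 129, 149 and 150 CPM. For all 3 genes the groups overlapped, with log2 fold changes of 0.00, −0.04 and −0.14 and adjusted p of 0.997, 0.955 and 0.798 (edgeR). *Psmb5* shares 71.7% of its 31-base words with other genes, mostly the pseudogene *Gm3375*, so that its count is uncertain.

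*Psmb8*, *Psmb9* and *Psmb10* replace these subunits in the immunoproteasome, which interferon induces and which leukocytes carry constitutively. *Psmb8* was at 6.48, 7.67 and 6.69 CPM in the control libraries and at 8.85, 8.16, 6.30, 7.01 and 7.80 CPM in A24, A25, A26, A29 and A31. *Psmb9* was at 2.95, 3.60 and 3.87 CPM and at 3.21, 4.55, 3.72, 2.97 and 3.83 CPM. *Psmb10* was at 11.0, 11.2 and 8.92 CPM and at 12.1, 12.9, 9.39, 12.1 and 11.0 CPM. All 3 were low in every library and their groups overlapped, with log2 fold changes of 0.13, 0.08 and 0.15 (SE 0.174, 0.218 and 0.162) and adjusted p of 0.752, 0.895 and 0.698 (edgeR). *Psmb11*, of the thymoproteasome of the thymic cortex, was at 0.303 CPM or less in each library and at 0 in A8, and its estimate of 0.82 (SE 0.713, adjusted p 0.609, edgeR) rested on at most 16.0 counts a library and went from 0.30 to 1.26 in the fits that left out 1 library and kept the gene.

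Within a library, the share of the immunosubunit in a pair does not depend on scaling. By TPM, *Psmb8* made up 4.70%, 3.51% and 5.28% of the *Psmb5* and *Psmb8* sum in A7, A8 and A12, and 3.86%, 5%, 5.32%, 4.79% and 4.69% in A24, A25, A26, A29 and A31. *Psmb9* made up 1.96% ± 0.522 (SD, n = 3) of its pair with *Psmb6* in control and 2.21% ± 0.430 (SD, n = 5) in *Adipo-HuR-/-*. *Psmb10* made up 9.31% ± 2.23 (SD, n = 3) of its pair with *Psmb7* and 10.1% ± 1.90 (SD, n = 5). A8 had the smallest share in each of the 3 pairs, and the groups overlapped. The 3 two-sided exact permutation tests gave p = 0.607, 0.500 and 0.607. The standard subunits thus made up most of each pair in every library of both groups.

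**Figure D2:**
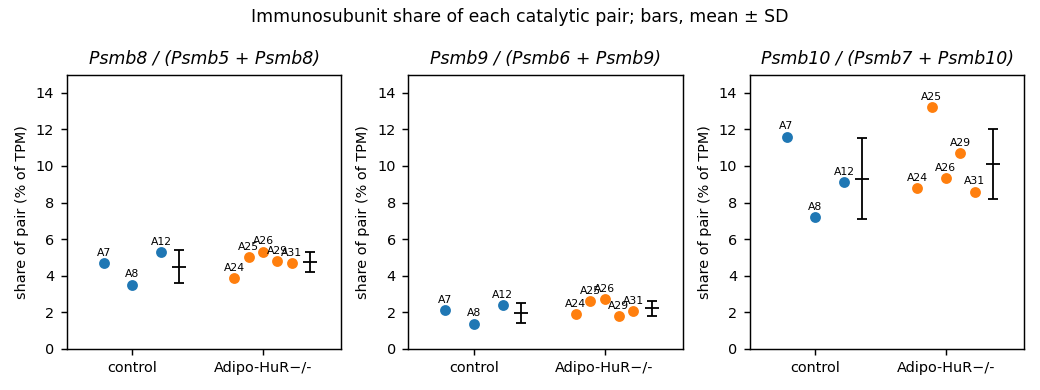
Share of the immunosubunit in each catalytic pair (percent of the pair's TPM, y axis) in each library by group; points are libraries and bars the mean ± SD. The *Psmb8* share lay between 3.51% and 5.32% and the *Psmb9* share between 1.37% and 2.71%, with the groups overlapping in all 3 pairs.

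Leukocyte markers and interferon genes were read beside the immunosubunits. The 12 leukocyte markers, all detected, summed to 84.9, 34.3 and 119 CPM in A7, A8 and A12 and to 104, 70.5, 69.8, 60.1 and 61.5 CPM in A24, A25, A26, A29 and A31, with *Lyz2* the most abundant. Of 15 interferon and antigen presentation genes 0 were called and 5 (33.3%) had an unadjusted p under 0.05, beside 17.0% of all genes, with *Gbp3*, *Ifit3*, *Tapbp* and *B2m* lower and *Tap2* higher in *Adipo-HuR-/-*. DESeq2's Wald test called 0, with 1 (*Tapbp*, adjusted p 0.0476; 6.7%, beside 6.55% of all genes) at 0.05 or less. *Tapbp* was also the 1 gene of this list whose groups did not overlap with *Adipo-HuR-/-* lower, beside 6.09% of all genes, at a log2 fold change of −0.48 with TMM scaling. With total counts its groups overlapped, at −0.23, and 2 others of the list (*Irf1* and *Tap1*) had non-overlapping groups with *Adipo-HuR-/-* higher, beside 11.9% of all genes. In bulk tissue, fewer cells of a type and less RNA per cell cannot be told apart.

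Among the subunits of the particle, the 19S cap had the lower median. Of its 17 subunits 16 had an estimate below 0 with TMM scaling, with a median of −0.26 over all 17. So had 12 of the 14 core subunits tested, with a median of −0.15, and 7413 of all 14851 genes. Of the 17 cap subunits 3 (17.6%, beside 6.09% of all genes) had non-overlapping groups with *Adipo-HuR-/-* lower. Total-count scaling moved the median of all genes from 0.00 to 0.23, and on that scale the cap median was −0.02. There 9 of the 17 estimates were below 0, beside 4132 of all 14851 genes. Only *Psmd14* kept its groups apart, beside 1.45% of all genes on that scale. *Psmd1* (chr1:86064387-86139151, plus strand), the large scaffold of the base, was at 127, 128 and 140 CPM in A7, A8 and A12 and at 93.3, 77.9, 82.2, 97.6 and 102 CPM in A24, A25, A26, A29 and A31. Each control library was above each *Adipo-HuR-/-* library. The log2 fold change was −0.54 (95% interval −0.85 to −0.22, SE 0.143), with an adjusted p of 0.100 in edgeR's quasi-likelihood test and 0.00980 in DESeq2's Wald test, and with a fold change short of 1.5 in both. *Psmd1* was named after its values were seen.

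*Psmd14* (chr2:61711694-61800376, plus strand), the deubiquitinase that removes ubiquitin chains as a substrate enters, was at 78.4, 94.8 and 77.2 CPM in the control libraries and at 71.5, 47.4, 50.1, 61.0 and 48.7 CPM in A24, A25, A26, A29 and A31. A24 came closest to the control libraries without reaching them. The log2 fold change was −0.58 (95% interval −0.97 to −0.20, SE 0.172) with an adjusted p of 0.126 (edgeR), and 0.0461 in the Wald test. *Psmd3*, a lid subunit, had the highest estimate of the non-ATPase group. It was at 96.5, 92.9 and 95.6 CPM in control and at 110, 106, 88.7, 97.4 and 108 CPM in *Adipo-HuR-/-*. Here 4 of the 5 *Adipo-HuR-/-* libraries lay above all controls and A26 below them, with a log2 fold change of 0.10 (SE 0.135, adjusted p 0.747, edgeR).

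Among the 6 ATPases, which unfold the substrate, estimates went from −0.45 to −0.09. *Psmc1* (chr12:100110154-100123405, plus strand) was lowest, at 101, 117 and 129 CPM in A7, A8 and A12 and at 100, 73.3, 71.8, 83.6 and 96.1 CPM in A24, A25, A26, A29 and A31. The groups did not overlap on the TMM scale, but A7 and A24 were nearly equal. The log2 fold change was −0.45 (95% interval −0.81 to −0.08, SE 0.164) with an adjusted p of 0.201 (edgeR); *Psmc1* shares 32.2% of its 31-base words with other genes, mostly *Gm9575*, and its count is uncertain. *Psmc5*, with the highest estimate of the ATPases, was at 74.8, 115 and 88.6 CPM and at 99.9, 70.2, 72.3, 91.6 and 100 CPM. Its groups overlapped throughout (−0.09, SE 0.192, adjusted p 0.846, edgeR).

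The other cap subunits lay between −0.38 (*Psmc6*) and −0.05 (*Psmd13*). *Psmd2*, the other large scaffold of the base, had an unadjusted p of 0.0407 and an adjusted p of 0.267 (edgeR) at a log2 fold change of −0.35, and shares 31.6% of its 31-base words with other genes. Per length, cap subunits went from 47.4 ± 11.6 TPM (*Psmd1*) to 176 ± 46.0 TPM (*Psmd8*; SD over 8 libraries), with both groups pooled. In control *Psmd13* (mean 50.1 TPM) was below *Psmd1* (55.5 TPM). In *Adipo-HuR-/-* *Psmd13* was at 56.6 TPM and *Psmd1* at 42.6 TPM. The mean TPM of the 17 cap subunits divided by that of the 14 core subunits tested, a ratio free of library scaling, was 0.814, 0.553 and 0.683 in A7, A8 and A12 and 0.507, 0.583, 0.614, 0.641 and 0.635 in A24, A25, A26, A29 and A31. A7 and A12 were above all *Adipo-HuR-/-* libraries in this ratio and A8 was below 4 of the 5, so that the groups overlapped.

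**Figure D3:**
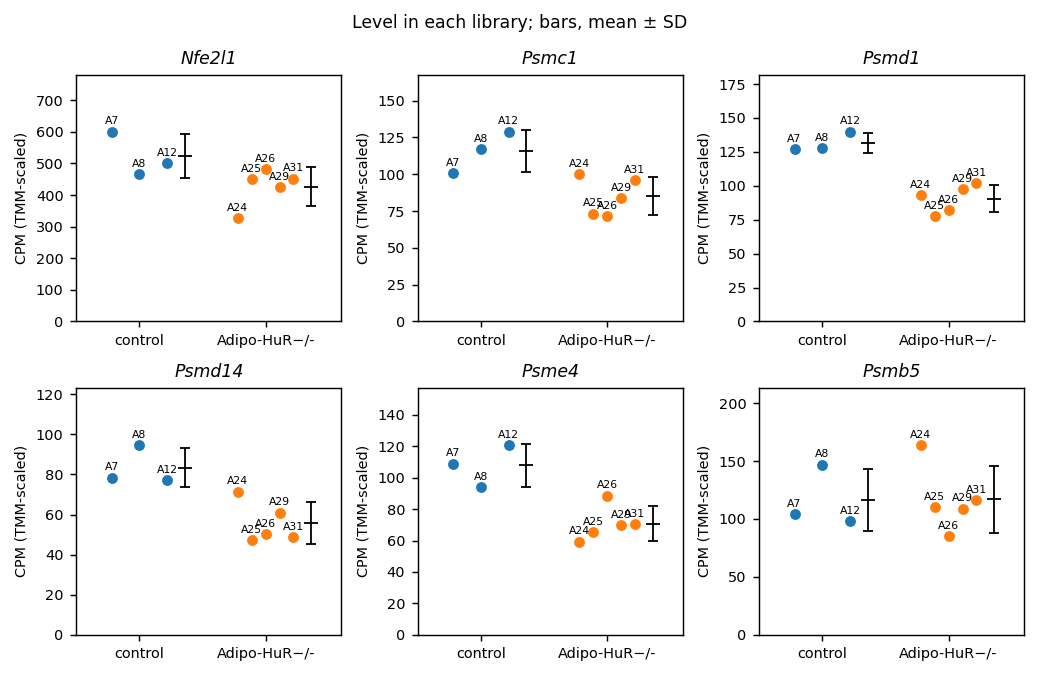
CPM (y axis, TMM-scaled) of *Nfe2l1*, of the 4 members whose groups did not overlap and of the core subunit *Psmb5* in each library by group; points are libraries and bars the mean ± SD. *Psmd1* lay at 127 CPM or more in control and at 102 CPM or less in *Adipo-HuR-/-* libraries, while *Psmb5* overlapped; with total counts only *Psmd14* of the 4 kept non-overlapping groups.

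The activators dock on the core in place of the 19S cap. *Psme4* (chr11:30771726-30880361, plus strand), which encodes the single-chain activator PA200, was at 109, 93.9 and 121 CPM in A7, A8 and A12 and at 59.3, 65.3, 88.6, 70 and 70.7 CPM in A24, A25, A26, A29 and A31. On the TMM scale it was lower in each *Adipo-HuR-/-* library than in any control, with A26 closest to A8. The log2 fold change was −0.61 (95% interval −0.97 to −0.25, SE 0.163), the lowest of all members, with an adjusted p of 0.103 in edgeR's quasi-likelihood test, 0.0577 in the likelihood ratio test, 0.0885 in limma voom and 0.0135 in DESeq2's Wald test. Over all fits the adjusted p lay between 0.0135 and 0.324. With total counts the groups of *Psme4* overlapped, at a log2 fold change of −0.39.

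*Psme3*, the nuclear activator PA28 gamma, had the highest estimate of this class (0.10, SE 0.136, adjusted p 0.757, edgeR). It was at 74.0, 74.0 and 86.8 CPM in control and at 92.2, 77.8, 80.5, 80.4 and 88.9 CPM in *Adipo-HuR-/-*, with A12 inside the *Adipo-HuR-/-* range. The interferon-inducible activators *Psme1* and *Psme2* had estimates of −0.19 and 0.03 and the inhibitor *Psmf1* one of −0.03, each with an adjusted p of 0.778 or more (edgeR). *Psme2b*, at 0.113 to 1.21 CPM, shares 78.4% of its 31-base words with other genes, mostly *Psme2*, and cannot be told from it with certainty. Per length *Psme2* was the most abundant of the class at 144 ± 32.0 TPM and *Psme4* stood at 19.6 ± 6.06 TPM (SD over 8 libraries).

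Assembly chaperones, which are not part of the complete particle, were low. Of their 7 estimates 6 were above 0 with TMM scaling and 7 with total counts. Of all 14851 genes, 7438 and 10719 were above 0 on these scales. The 4 chaperones of the core gave estimates from 0.01 to 0.60. *Psmg3*, the highest, was at 4.95, 7.01 and 4.78 CPM in A7, A8 and A12 and at 12.8, 8.92, 5.69, 6.93 and 8.15 CPM in A24, A25, A26, A29 and A31. On the TMM scale A24 stood highest and A26 and A29 lay below A8. The groups thus overlapped there, at a log2 fold change of 0.60 (95% interval 0.00 to 1.20, SE 0.272, adjusted p 0.297, edgeR). With total counts the groups of *Psmg3* did not overlap, with *Adipo-HuR-/-* higher at 0.85, beside 11.9% of all genes. *Psmg2*, the lowest, was at 6.59, 8.46 and 8.04 CPM in control and at 10.7, 7.50, 7.04, 6.06 and 7.68 CPM in *Adipo-HuR-/-* (0.01, SE 0.208, adjusted p 0.980, edgeR). A24 was the highest library here too.

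Of the chaperones of the cap, *Psmd5* had the highest estimate, at 20.1, 26.9 and 25.8 CPM in control and at 33.3, 31.1, 26, 24.3 and 29.9 CPM in *Adipo-HuR-/-*. *Psmd10*, known as gankyrin, had the lowest estimate, at 12.3, 12.4 and 13.1 CPM and at 13.8, 11.1, 9.17, 11.2 and 11.3 CPM. On the TMM scale only A24 kept the groups of *Psmd10* from separating, and *Psmd5* overlapped in A26 and A29. With total counts the groups of *Psmd5* did not overlap, with *Adipo-HuR-/-* higher, beside 11.9% of all genes. Estimates of *Psmd5* and *Psmd10* were 0.25 (SE 0.162, adjusted p 0.464) and −0.16 (SE 0.157, adjusted p 0.651) in edgeR, and 0.51 and 0.07 with total counts. *Psmd9* lay at 0.23, but 25.5% of its exon bases overlap a gene on the other strand, and the library kit as named does not mark strand.

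Other genes of the pathway were read from lists. Of 17 genes that process *Nfe2l1* or partner with it, 15 partners of the proteasome and 6 ubiquitin genes, 0 of the 38 were called in edgeR's quasi-likelihood test and 7 (18.4%) had an unadjusted p under 0.05, beside 17.0% of all genes. DESeq2's Wald test called 0, with 1 (2.6%) at an adjusted p of 0.05 or less, beside 6.55%. Their median log2 fold changes were −0.20, −0.24 and −0.25. Over all 38 the median was −0.20 with TMM and 0.01 with total counts, beside 0.00 and 0.23 for all genes. With TMM scaling the groups did not overlap for 3 that were lower (*Vcp*, *Ngly1* and *Uba1*; 7.9%, beside 6.09% of all genes) and 1 that was higher (*Nfe2l3*; 2.6%, beside 5.37%). With total counts the groups of *Vcp*, *Ngly1* and *Uba1* overlapped, at −0.22, −0.22 and −0.13, and of the 38 only *Nfe2l3* kept them apart, beside 1.45% of all genes lower and 11.9% higher on that scale. *Vcp*, the ATPase p97 that extracts *Nfe2l1* from the endoplasmic reticulum membrane, was at 346, 348 and 355 CPM in control and at 276, 239, 238, 257 and 269 CPM in *Adipo-HuR-/-*. With TMM scaling control libraries lay close together and above the rest, at a log2 fold change of −0.45 (SE 0.137) with an adjusted p of 0.132 (edgeR) and 0.00563 in the Wald test, short of 1.5-fold.

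*Ngly1*, which removes the sugar chains of *Nfe2l1* before its activation, was at 43.6, 51.3 and 62.2 CPM in A7, A8 and A12 and at 38.2, 35.7, 39.9, 36.9 and 40.1 CPM in A24, A25, A26, A29 and A31. With TMM scaling the groups did not overlap, at −0.46 (SE 0.145, adjusted p 0.145, edgeR). *Nfe2l3*, a paralog of *Nfe2l1*, was below 1 CPM in each library, at 0.291, 0.253 and 0.355 CPM in control and at 0.733, 0.664, 0.919, 0.493 and 0.470 CPM in *Adipo-HuR-/-*. It was higher in each of the latter, at a log2 fold change of 1.11 (SE 0.389, adjusted p 0.181, edgeR). *Ddi2*, the protease that cleaves *Nfe2l1*, had an estimate of 0.05 with an adjusted p of 0.925 (edgeR). These 3 of the 38 with the smallest p, *Vcp*, *Ngly1* and *Nfe2l3*, were thus not called.

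Libraries also differed in the marker RNA of other cell types. The 12 skeletal muscle markers summed to 3436, 2263 and 53.9 CPM in A7, A8 and A12 and to 40.9, 29.4, 21.3, 43.5 and 378 CPM in A24, A25, A26, A29 and A31. *Myh4*, the most abundant of them in A7 at 1048 CPM, was at 0 in A25, A26 and A29. Muscle RNA was thus high in 2 of 3 control libraries and in A31. Of the 12 markers 2 (*Myh7* and *Myl1*) were called lower in *Adipo-HuR-/-* (edgeR), beside 0.707% of all genes in either direction. An unadjusted p under 0.05 (edgeR) was held by 9 of the 12, beside 17.0%, and DESeq2 called 3, beside 5.51%. *Myh7* was at 60.7, 9.29 and 0.0209 CPM in A7, A8 and A12. It was at 0.197 CPM or less in *Adipo-HuR-/-* libraries, and its groups overlapped. With a muscle score as a covariate the members' median was −0.09 (all genes 0.02) and without A7, A8 and A31, with A12 alone as control, it was −0.08 (all genes 0.05). These fits called 0 members, beside 14 of 14851 and 4 of 15641 genes in all.

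The 8 brown adipocyte markers summed to 16205, 31889 and 22901 CPM in control and to 26711, 14903, 20277, 19627 and 23844 CPM in *Adipo-HuR-/-*, with *Ucp1* or *Fabp4* the most abundant. The part of this sum in the results was not tested. The 7 endothelial and mural markers summed to 665, 544 and 752 CPM in control and to 530, 682, 762, 777 and 724 CPM in *Adipo-HuR-/-*, with A24 and A8 lowest. With edgeR, 0 of the 8 brown adipocyte, 7 endothelial and mural, and 12 leukocyte markers were called, beside 0.707% of all genes. An unadjusted p under 0.05 (edgeR) was held by 0, 1 and 1 of them, beside 17.0% of all genes. DESeq2 called 0, beside 5.51%. A8 had the smallest TMM factor, 0.763, and A25 the largest, 1.20.

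Promoters were searched for TGACNNNGC on both strands, the core of the antioxidant response element to which *Nfe2l1* binds with a small Maf protein. RefSeq promoters (GRCm38.p6) of 300 bases were matched by symbol for 43 of the 51 members. The letters were in a promoter of 6 of these 43 genes (14.0%) and of 3781 of 27025 genes in all (14.0%), so that the members held them as often as other genes. The 6 were *Psmb5*, *Psmb6*, *Psmc6*, *Psmd9*, *Psmd12* and *Psme4*. A match is a description of the letters and not a binding site. Windows around the match are shown for the catalytic subunits *Psmb5* (chr14:54618024-54618052, minus strand) and *Psmb6* (chr11:70525338-70525366, plus strand), and for *Psme4* (chr11:30771758-30771786, minus strand, opposite to the gene), the member with the lowest estimate. The first lies upstream of the gene annotated in GENCODE M21, as does that of *Psmb6*, and that of *Psme4* lies inside the annotated gene. Counted from the RefSeq start sites, the matches open at −47, −9 and −7 bases, in this order of genes. Capitals mark the match.
Psmb5: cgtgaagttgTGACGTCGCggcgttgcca
Psmb6: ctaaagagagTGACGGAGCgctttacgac
Psme4: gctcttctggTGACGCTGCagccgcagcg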

How the data were processed

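The values deposited by the authors are estimated counts of each transcript, 1 file a library, not normalized and on GRCm38. The study's methods name CLC Genomics Workbench for mapping; the program behind the estimates and its use of strand are not given in the sources used here. Transcript estimates were summed per gene and rounded. Genes kept by filterByExpr (14851) were scaled by TMM and tested by the quasi-likelihood test of edgeR 4.0.16 in R 4.3.3, with Benjamini-Hochberg adjustment over all of them. Alternatives used limma 3.58.1 and DESeq2 1.42.0, other scalings, filters and libraries. TPM divided transcript estimates by GENCODE M21 lengths, set levels between genes in order and are not TMM-scaled. Python 3.11.15 and scipy 1.17.1 gave exact permutation tests. Shared 31-base words were counted over GENCODE M21 transcripts. Intervals cover the spread between libraries, and the floor of 3 counts counting error only. Genes given in full were *Nfe2l1*, called members, the highest and lowest estimate of each class, the catalytic pairs and the 3 pathway genes with the smallest p; members, classes and lists were chosen with earlier results of these data known.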

Additional observations from a re-analysis of the deposited data

Results flagged for a closer look

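*Psmb3*, a beta ring subunit, stood apart in A24 among the 5 *Adipo-HuR-/-* libraries, at 169 CPM against 118 CPM in the next, a gap of 0.728 of the group's range where Dixon's limit for 5 values is 0.710. Of 26 genes looked at in this way in the *Adipo-HuR-/-* libraries it was the 1 such value, and chance gives about 1 in 20 groups.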

How the results depend on the processing

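Members called stayed at 0 in all fits but DESeq2's Wald test (1, *Psme4*). The count over all genes, 105, was 818 with the Wald test, 655 with the likelihood ratio test, 16 with the highest transcript, 32 with protein-coding transcripts, 14 with the muscle covariate, 5 without A24 and A25, 4 without A7, A8 and A31 (control then A12 alone, assumed to vary like the other group) and 58 with the GC trend removed, and 10 to 190 with 1 library left out. The cause was not tested, though fewer libraries enter several of these.

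The members' median, −0.14, turned to 0.11 with total counts and went from −0.23 to 0.06 with 1 library left out, the last without A8. With total counts the median of all genes was 0.23. The members' median minus that of all genes was −0.12 there and −0.15 in the main fit. *Nfe2l1*, *Psmc1*, *Psmd1*, *Psmd14* and *Psme4* kept their direction in 22 fits, and of 521 values for the 25 single genes other than *Nfe2l1* 51 turned sign, none of them called. With total counts these were *Psma3* 0.19, *Psmb2* 0.00, *Psmb5* 0.25, *Psmb6* 0.24, *Psmb7* 0.13, *Psmc5* 0.16 and *Psmd10* 0.07. With voom they were *Psmb5* 0.04, *Psmb6* 0.10 and *Psmg2* −0.05, with the muscle covariate *Psmb5* 0.12, *Psmb6* 0.13, *Psmc5* 0.01 and *Psmg2* −0.04, and with the highest transcript *Psma3* 0.02, *Psmb5* 0.00 and *Psmb9* −0.21. Protein-coding transcripts gave *Psmb5* 0.02 and *Psmb9* −0.12. The GC correction gave *Psma3* 0.12, *Psmb8* −0.03, *Psmb9* −0.04, *Psmb10* −0.06, *Psmd3* −0.14 and *Psmd10* 0.00. Without A24 and A25 *Psmb3* was at −0.03 and *Psmg2* at −0.16, and without A7, A8 and A31 *Psmb5* was at 0.25, *Psmb6* at 0.22, *Psmb7* at 0.07, *Psmb9* at −0.10, *Psme3* at −0.07 and *Psmg2* at −0.05. With 1 library left out *Psma3* lay between −0.19 and 0.06, *Psma4* between −0.57 and 0.02, *Psmb3* between −0.05 and 0.54, *Psmb5* between −0.16 and 0.21, *Psmb6* between −0.20 and 0.31, *Psmb7* between −0.28 and 0.13, *Psmb9* between −0.03 and 0.16, *Psmc5* between −0.23 and 0.09 and *Psmg2* between −0.13 and 0.09. The cause was not tested. The counts of non-overlapping members, pathway genes and interferon genes with total-count scaling were added after seeing the data; those of the pathway genes went from 3 to 0 lower and stayed at 1 higher, and those of the interferon genes went from 1 to 0 lower and from 0 to 2 higher. Depth limits *Psma8* and *Psmb11*, at or near the floor, and *Psme2b*, with 1.95 counts in A24, below the floor of 3 counts.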
